A study of Mus musculus with 2 samples.

Results

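The BMP, activin and TGF-beta pathway was described across the bulge and the hairshaft of the mouse hair follicle, gene by gene, from ligand to target. Its 51 genes were taken by name, as 15 ligands, 5 genes of ligand processing and latency, 11 receptors, 7 antagonists, 7 SMADs and 6 targets. Of these, 49 had at least 1 probe set of their own, 106 probe sets in all, among 18194 named genes and 45101 probe sets on the arrays; Bmp3 and Mstn were not analysed here. Both groups were skin of C57Bl6 mice aged 21 days with no treatment or allele named, one cut by laser from the bulge and the other from the hairshaft, and each was hybridised to 1 Affymetrix mouse array. A total of 30 ng of RNA was amplified for labelling. How many animals were used, and of which sex or body site, is not given in the sources used here. A laser cut holds whatever cells lie in it, so that in each value fewer cells of a type and less RNA per cell cannot be told apart.

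Ligands of this family are secreted dimers that bring type I and type II receptor kinases together. The type I kinase then phosphorylates a receptor SMAD, which joins Smad4 and enters the nucleus, where Id genes are classical targets of the BMP branch and matrix genes such as Ccn2 of the TGF-beta branch. In the hair follicle BMP signals hold bulge stem cells at rest, while BMP antagonists and Tgfb2 from the dermal papilla oppose that hold when a new hair cycle starts. Activins bind the receptors Acvr2a or Acvr2b with Acvr1b, and then act on the same SMADs as the TGF-beta receptors. Follistatin binds and blocks activins.

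All levels are log2 GCRMA values, a background-corrected and normalized brightness, and every difference is bulge minus hairshaft on that log2 scale. Each gene is represented by its brightest probe set, and the levels of different genes cannot be compared because each probe set has its own response. A floor of 2.68 on both arrays marks the 95th percentile of olfactory and vomeronasal receptor genes, taken as not expressed in skin. Of the 49 genes, 48 were above it on at least 1 array, all but the BMP antagonist Nog, which was 2.33 on both. With 1 array per structure there is no replicate spread and no test, so the counts use a fixed limit of 2-fold and describe these arrays only.

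Most of the pathway was under 2-fold apart between the arrays, and genes over that limit were nearly all brighter in the bulge. Among all genes above the floor the bulge also led, with 1526 over the limit against 655 in the hairshaft. Of the 48 genes, 9 were higher by 2-fold or more in the bulge (18.8%), against 11.4% of all 13329 genes above the floor. These were Bmp6, Gdf10, Inhbb, Tgfb3, Ltbp2, Tgfbr3, Fst, Bambi and Ccn2. In the other direction 1 gene, Fstl1, was higher by 2-fold or more in the hairshaft (2.08%), against 4.91% of all genes. The remaining 38 were under 2-fold apart. Among them were 6 with identical values on both arrays, and several dim genes near the floor, where a difference can hardly show. The median difference of the 48 genes was 0.15, beside 0.00 for all genes above the floor. Counted by probe set, 17 of 93 above the floor were higher by 2-fold or more in the bulge (18.3%), against 9.87% of all named probe sets, and 3 in the hairshaft (3.23%), against 6.75%.

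**Figure D1:**
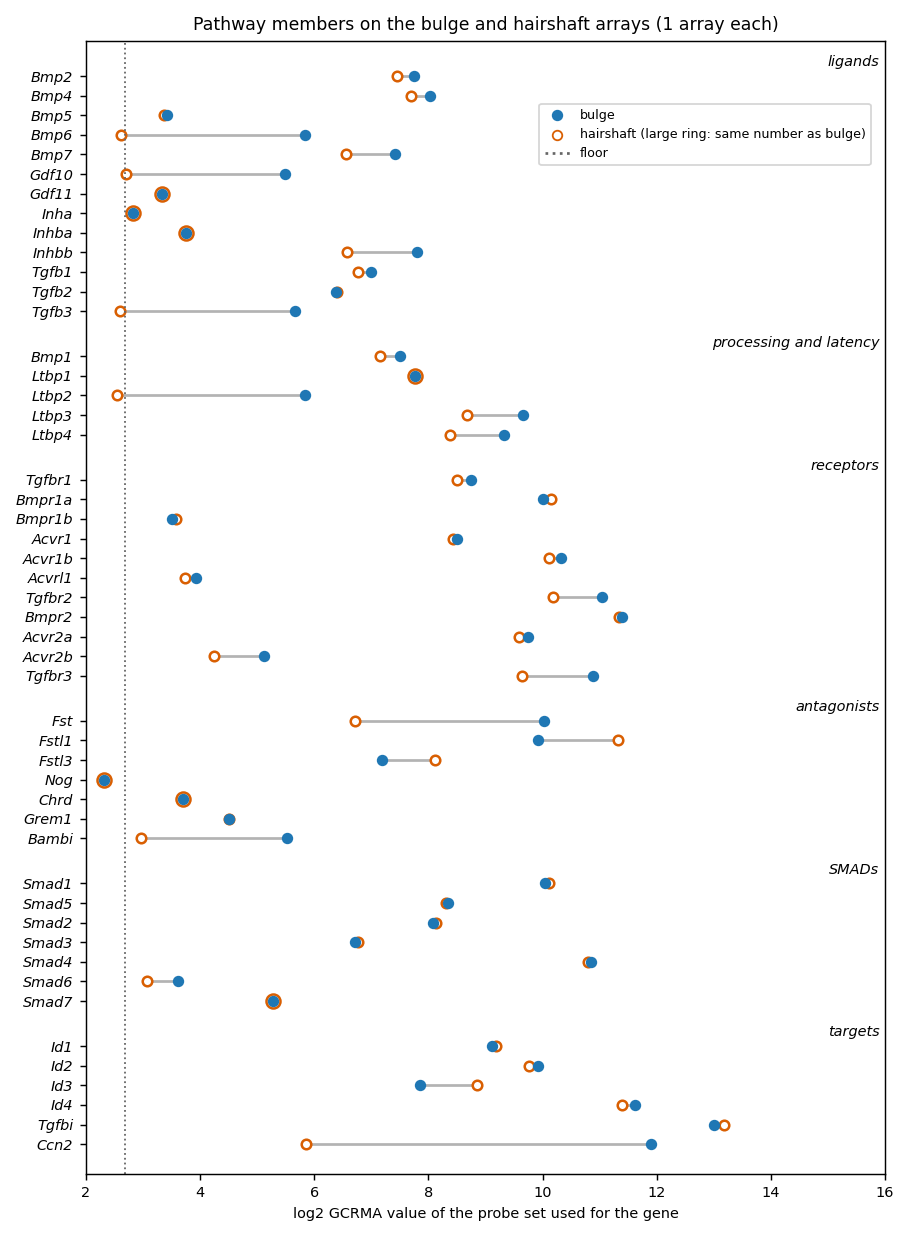
Log2 GCRMA value (horizontal axis) of the probe set used for each of the 49 measured genes, by role, in the bulge (filled) and the hairshaft (open), 1 array each; the dotted line is the floor of 2.68 and a large ring marks the same number on both arrays. Ccn2 has the widest gap, 11.90 against 5.86, and the SMAD pairs nearly coincide.

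Some of the small differences are not measured differences in the usual sense, because the deposited number was the same on both arrays in every digit. This held for 6 of the 48 genes, namely the ligand genes Gdf11, Inha and Inhba, the latency protein Ltbp1, the antagonist Chrd and the inhibitory Smad7. Ltbp1 had 7.77 and Smad7 5.27 on both arrays, well above the floor. Among probe sets of the pathway above the floor, 14 of 93 were identical in this way (15.1%), beside 11.5% of all probe sets above the floor. For these 6 genes a difference of 0.00 is reported as the deposited value, and equal expression was not shown.

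The labels of the arrays were set against marker genes of the cell types that such cuts can hold. All 8 keratinocyte markers were under 2-fold apart, with summed linear levels of 141901 in the bulge against 147362 in the hairshaft. The bulge array was higher by at least 2-fold in 6 of 8 bulge stem cell markers (summed level 20636 against 14554). Krt15, which gave most of that sum, was near-equal at 13.99 and 13.68. The bulge array was also higher by at least 2-fold in 12 of 12 skeletal muscle markers (summed level 223507 against 103). The same held for 6 of 6 for fat cells, 8 of 8 for endothelium and 8 of 8 for smooth muscle and pericytes. The skeletal muscle and fat cell markers that were bright on the bulge array are not markers of the bulge. Both arrays are called here by their labels only, and a value in the bulge means the bulge array. Hair shaft markers went against the hairshaft label. Of 9, 7 were higher by 2-fold or more in the bulge and 4 were at or below the floor in the hairshaft. Their summed levels were 406 in the bulge against 68.1 in the hairshaft. Krt35 and Krt36 were near the floor in the bulge too, at 2.70 and 2.71. Sebocyte and melanocyte markers above the floor were also over the limit in the bulge, 4 of 4 in each list, while all 6 leukocyte markers were brighter in the hairshaft, 1 of them over the limit. Fibroblast markers were divided. The collagen genes Col1a1, Col1a2 and Col3a1 were over the limit in the hairshaft and gave most of a summed level of 83404 there against 36559 in the bulge, whereas Dpt was 3.62-fold higher in the bulge and Pdgfra and Pdgfrb were brighter there. Of 5 dermal papilla markers above the floor, 3 were over the limit in the bulge (Sox18, Wif1 and Spon1). The part of these other cells in the results that follow was not tested.

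Among the ligands, 4 of 13 above the floor were higher by 2-fold or more in the bulge (30.8%), against 11.4% of all genes above the floor. None was higher in the hairshaft, against 4.91% of all genes. With so few genes in a class, no class count was tested against these shares. The ligand median was 0.30, but 0.87 at a higher floor of 4.21 and 0.60 without identical probe sets. Bmp6, a BMP that inner cells of the bulge are known to make, read 5.85 in the bulge against 2.62 in the hairshaft. The second value is at or below the floor, so Bmp6 was at least 9.00-fold higher in the bulge. Tgfb3, the third TGF-beta, read 5.66 in the bulge against 2.60 in the hairshaft, again at or below the floor, which made it at least 7.94-fold higher. Gdf10, a relative of Bmp3 also called BMP-3b, had 5.48 and 2.71 and was 6.83-fold higher. Each of these 3 genes had 1 probe set, and each was dim on the hairshaft array. With a floor at 4.21, the higher percentile tried, the log2 difference became 1.64 for Bmp6, 1.45 for Tgfb3 and 1.27 for Gdf10, still over the 2-fold limit.

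Inhbb, the subunit of activin B, read 7.80 in the bulge against 6.57 in the hairshaft, a 2.36-fold difference. Its second probe set read 3.68 on both arrays, and with the mean of both probe sets the log2 difference was 0.62, under the limit. The other activin and inhibin subunits gave no difference to read, with identical values of 3.76 for Inhba and 2.82 for Inha. Gdf11, a close relative of myostatin, likewise had 3.33 on both arrays.

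The BMPs best known from follicle and dermis were close on the arrays. Bmp2, which oscillates in the dermal fat and dermis during the hair cycle, read 7.76 in the bulge against 7.45 in the hairshaft (1.23-fold). Bmp4, a BMP of dermal papilla and dermal fibroblasts, had 8.03 and 7.69 (1.26-fold), and Bmp5 had 3.42 and 3.36. Bmp7 was nearer the limit, and its probe sets lay on both sides of it. The brightest read 7.42 and 6.55, a 1.83-fold difference, whereas the others read 7.02 and 5.26 (3.38-fold) and 6.64 and 4.40 (4.74-fold). All 3 probe sets of Bmp7 were higher in the bulge, and their mean gave a log2 difference of 1.62, over the limit.

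The 3 TGF-beta ligands did not move alike. Against the bulge-high Tgfb3, Tgfb1 read 6.99 in the bulge against 6.77 in the hairshaft (1.17-fold), and Tgfb2, the papilla signal named above, had 6.39 and 6.40. A second probe set of Tgfb2 read 5.63 and 4.35, 2.42-fold higher in the bulge, and the other 2 were identical on both arrays at 5.26 and 3.39.

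The sequences just before the transcription start of 3 of the bulge-high ligand genes are shown because motifs bound by SMADs can be read in them. Entries were found in the RefSeq promoter table (GRCm38.p6) for 36 of the 51 genes and for 5 of the 10 that were at least 2-fold apart. Each run is the 250 bases before the annotated start, read 5′ to 3′ on the strand of the gene. Capitals mark matches, on either strand, to GGCGCC, a GC-rich motif that BMP SMADs are known to bind, and to CAGAC or its reverse complement GTCTG, the SMAD box. Over all 32851 entries, 9.59% of such windows held GGCGCC and 42.2% held CAGAC or GTCTG; no window shown holds overlapping matches. Bmp6 lies at chr13:38345466-38345715 on the plus strand, Gdf10 at chr14:33923337-33923586 on the plus strand and Inhbb at chr1:119422249-119422498 on the minus strand.
Bmp6: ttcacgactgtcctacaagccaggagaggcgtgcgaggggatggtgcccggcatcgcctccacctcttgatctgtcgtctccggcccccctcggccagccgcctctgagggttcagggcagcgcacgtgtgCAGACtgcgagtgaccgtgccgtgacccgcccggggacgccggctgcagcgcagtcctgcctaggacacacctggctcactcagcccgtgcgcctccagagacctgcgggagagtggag
Gdf10: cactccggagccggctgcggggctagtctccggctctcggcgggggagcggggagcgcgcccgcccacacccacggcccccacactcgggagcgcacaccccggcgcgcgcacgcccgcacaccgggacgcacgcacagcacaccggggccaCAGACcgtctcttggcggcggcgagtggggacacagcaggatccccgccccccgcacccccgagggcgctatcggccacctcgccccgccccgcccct
Inhbb: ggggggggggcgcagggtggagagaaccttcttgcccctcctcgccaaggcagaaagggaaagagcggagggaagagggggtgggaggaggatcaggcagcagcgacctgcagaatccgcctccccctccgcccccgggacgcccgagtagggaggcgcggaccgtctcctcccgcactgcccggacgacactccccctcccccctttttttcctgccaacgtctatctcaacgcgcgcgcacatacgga

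All 3 windows were GC-rich, at 68.8% for Bmp6, 78.8% for Gdf10 and 68.0% for Inhbb, beside a median of 52.4% over all entries. Bmp6 and Gdf10 each held 1 match to the SMAD box and none to GGCGCC. No match to either motif was found in the Inhbb window, which says only that these letters are not in it.

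Genes of ligand processing and latency had a median difference of 0.96. In the bulge 1 of 5 was higher by 2-fold or more (20.0%, against 11.4% of all genes). None was higher in the hairshaft, against 4.91% of all genes. Bmp1 is not a ligand but a metalloprotease that trims procollagens and cleaves chordin. It read 7.50 in the bulge against 7.16 in the hairshaft (1.27-fold). The latent TGF-beta binding proteins tie ligand or microfibrils to the matrix, and their 4 members ranged from no difference to at least 8.98-fold. Ltbp2, a microfibril protein of the family that does not itself bind latent TGF-beta, read 5.84 in the bulge against 2.55 in the hairshaft, at or below the floor. The at least 8.98-fold difference became 1.63 on the log2 scale with the floor at 4.21.

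Ltbp3 and Ltbp4, which carry latent TGF-beta, stood just inside the limit. Ltbp3 read 9.65 in the bulge against 8.67 in the hairshaft (1.98-fold), and Ltbp4 had 9.33 and 8.37 (1.95-fold). A second probe set of Ltbp3 read 8.12 and 6.79 and was over the limit at 2.51-fold. With a loess trend removed, both genes passed the limit, at 1.09 for Ltbp3 and 1.06 for Ltbp4. Ltbp1 gave the identical pair described above. The window before the start of Ltbp2, at chr12:84876492-84876741 on the minus strand, is shown since Ltbp2 has the largest difference among these proteins, and it held 2 matches to the SMAD box.
Ltbp2: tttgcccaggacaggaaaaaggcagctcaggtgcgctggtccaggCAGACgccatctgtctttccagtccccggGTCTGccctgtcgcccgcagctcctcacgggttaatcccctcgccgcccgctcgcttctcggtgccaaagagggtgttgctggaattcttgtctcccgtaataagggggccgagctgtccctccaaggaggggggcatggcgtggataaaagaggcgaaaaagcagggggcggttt

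**Figure D2:**
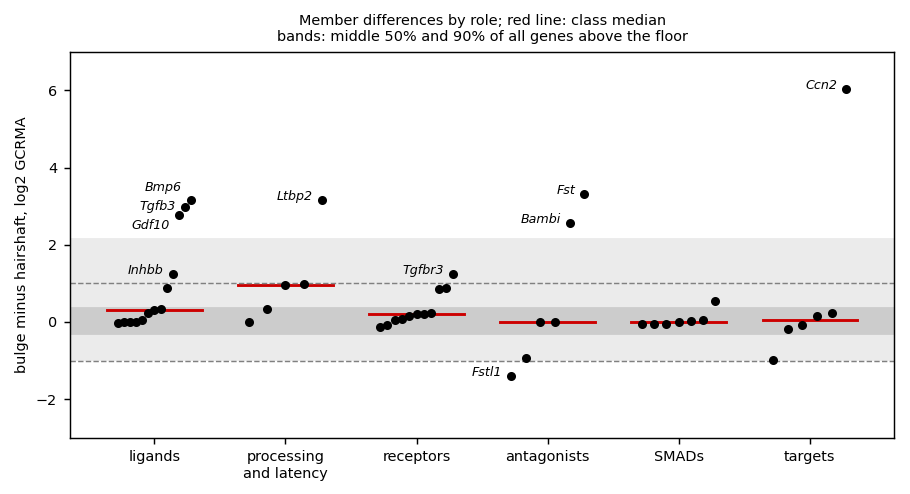
Bulge minus hairshaft difference (log2 GCRMA, vertical axis) of the 48 genes above the floor, 1 point a gene, grouped by role, with the class median as a red line, the 2-fold limit dashed, and bands for the middle 50% and 90% of all genes above the floor. Ligand, processing, antagonist and target genes each have points above the wide band, which ends at 2.15, while receptors and SMADs have none.

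Among the 11 receptors, 1 was higher by 2-fold or more in the bulge (9.09%), near the 11.4% of all genes above the floor. None was higher in the other direction, against 4.91% of all genes, and the median was 0.21. The gene over the limit was Tgfbr3, betaglycan, a coreceptor without a kinase that presents Tgfb2 and binds inhibin. Its probe sets read 10.88 in the bulge against 9.64 in the hairshaft (2.37-fold) and 5.97 and 4.22 (3.38-fold), both over the limit in the same direction.

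No type I receptor of the pathway was over the limit by its brightest probe set. Tgfbr1, the TGF-beta kinase ALK5, read 8.74 in the bulge against 8.51 in the hairshaft (1.18-fold). Bmpr1a, the BMP kinase that hair differentiation depends on, had 10.02 and 10.15 (1.10-fold higher in the hairshaft), and Bmpr1b had 3.51 and 3.59. Acvr1, a BMP kinase, had 8.49 and 8.43. Acvr1b, the activin kinase, had 10.32 and 10.12 (1.16-fold). Acvrl1, the BMP kinase of endothelium, had 3.94 and 3.73 by its brightest probe set. The other probe set had 4.35 and 3.06 and was 2.44-fold higher in the bulge. In that array 8 of 8 endothelial markers were higher too, and a link was not tested.

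Type II receptors, which bind ligand and activate the type I kinase, had differences of 0.05 to 0.87. Tgfbr2 read 11.04 in the bulge against 10.19 in the hairshaft (1.80-fold), with a second probe set at 6.65 and 5.33 (2.49-fold). Acvr2b had 5.12 and 4.25 (1.83-fold), and a second probe set of it was identical on both arrays at 3.41. Acvr2a, the other activin type II receptor, had 9.74 and 9.60 (1.10-fold). Bmpr2, the BMP type II receptor, had 11.39 and 11.34 by its brightest probe set, whereas another read 4.68 and 5.78, 2.15-fold higher in the hairshaft. All 4 type II genes were thus slightly brighter in the bulge by their brightest probe set, but Bmpr2 turned to -0.37 with the mean of its probe sets and its direction depended on the probe set.

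The antagonists went both ways, with a median of -0.0025. Of 6 above the floor, 2 were higher by 2-fold or more in the bulge (33.3%, against 11.4% of all genes). In the hairshaft 1 was higher (16.7%, against 4.91%). Fst, follistatin, which traps activin and some BMPs, read 10.03 in the bulge against 6.72 in the hairshaft, a 9.91-fold difference. Its second probe set read 8.95 and 6.30 (6.24-fold), so both placed Fst far higher in the bulge array. Bambi, a pseudoreceptor without a kinase that damps BMP and TGF-beta signals, had 5.53 and 2.97 (5.89-fold, or a log2 difference of 1.32 with the floor at 4.21).

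The other follistatin relatives ran the opposite way. Fstl1, a secreted glycoprotein abundant in mesenchyme, read 9.93 in the bulge against 11.33 in the hairshaft, 2.64-fold higher in the hairshaft. Its second probe set read 9.40 and 9.66, and with the mean of both the log2 difference was -0.83, under the limit. Fstl3, which binds activin and myostatin, had 7.19 and 8.12, 1.91-fold higher in the hairshaft. Fibroblast markers went both ways, with 5 of 8 brighter in the hairshaft and 3 in the bulge. The window before the Fstl1 start, at chr16:37776805-37777054 on the plus strand, is shown as that of the 1 gene over the limit in the hairshaft, and it held neither motif.
Fstl1: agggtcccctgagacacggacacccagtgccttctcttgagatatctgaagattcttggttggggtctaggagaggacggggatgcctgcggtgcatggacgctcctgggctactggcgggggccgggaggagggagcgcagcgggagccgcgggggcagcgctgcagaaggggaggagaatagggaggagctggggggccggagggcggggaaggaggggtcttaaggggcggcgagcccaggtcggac

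The classical BMP traps gave little to compare. Nog, noggin, a trap made by follicle mesenchyme, was not above the floor on either array. Chrd, chordin, had an identical value of 3.70, and Grem1, gremlin, read 4.50 in the bulge against 4.51 in the hairshaft. Of 7 dermal papilla markers, 2 were at or below the floor in the bulge against 4 in the hairshaft.

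The SMADs had differences from -0.06 to 0.55, with none of 7 over the limit in either direction. Over all genes above the floor, 11.4% were over it in the bulge and 4.91% in the hairshaft. With 7 genes a count of none says little beside these shares. Smad1, a BMP receptor SMAD, read 10.05 in the bulge against 10.11 in the hairshaft, and Smad5, its partner, had 8.34 and 8.31. Smad2 and Smad3, which serve TGF-beta and activin, had 8.08 and 8.14, and 6.72 and 6.76. Smad4, the shared partner, had 10.85 and 10.80. Of the inhibitory SMADs, Smad6 had 3.62 and 3.07 (1.47-fold) and Smad7 the identical 5.27, with a second probe set at 4.70 and 4.85.

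Dimmer probe sets of several SMAD genes leaned to the hairshaft. One of Smad1 read 6.97 in the bulge against 8.07 in the hairshaft (2.14-fold), 2 of Smad5 differed by -0.54 and -0.95, and 1 of Smad4 read 8.47 and 9.10 (-0.63). Because of them the mean of probe sets gave -0.41 for Smad1, -0.49 for Smad5 and -0.26 for Smad4, still under the limit. For Smad5 and Smad4 this turned the sign of a small difference.

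**Figure D3:**
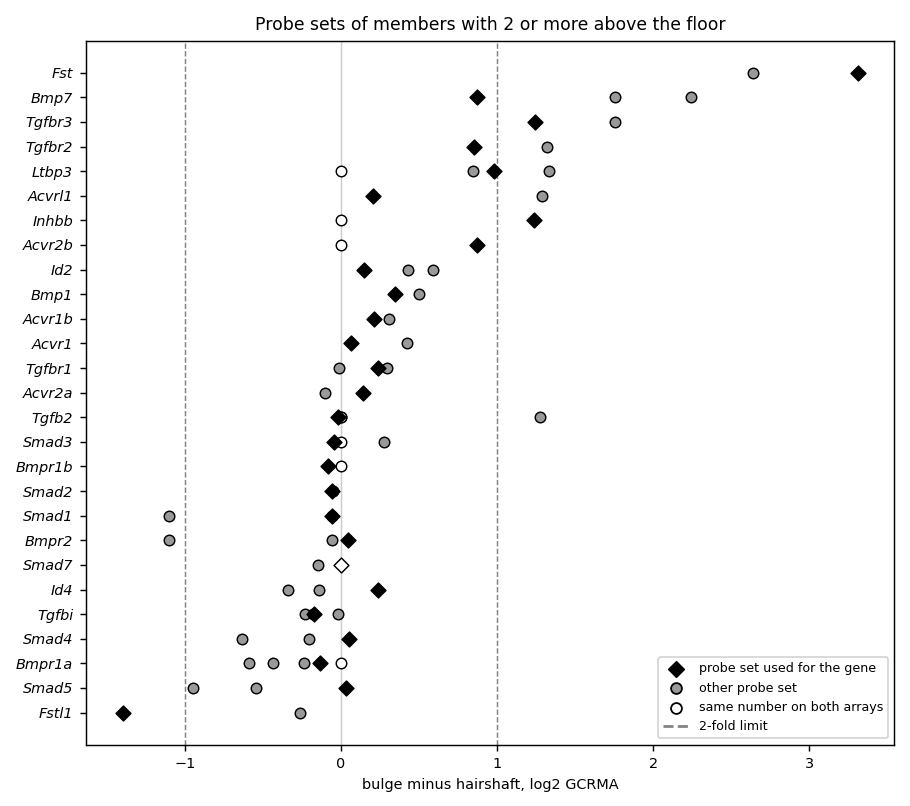
Bulge minus hairshaft difference (log2 GCRMA, horizontal axis) of every probe set above the floor for the 27 genes with 2 or more such probe sets; diamonds are the probe sets used for the gene, circles the others, open symbols identical values, and dashed lines the 2-fold limit. Fst and Tgfbr3 are beyond the limit with both probe sets, and 9 genes have probe sets on different sides of it.

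The targets were divided between the BMP and the TGF-beta branch, and their median was 0.04. In the bulge 1 of 6 was higher by 2-fold or more (16.7%, against 11.4% of all genes). None was higher in the hairshaft, against 4.91% of all genes. Ccn2, connective tissue growth factor, a matrix-associated protein induced by TGF-beta and by stretch, read 11.90 in the bulge against 5.86 in the hairshaft. Its 66.0-fold difference was the largest among the 48 genes and rested on 1 probe set. Over 9 alternatives it ran from 5.70 to 6.14 on the log2 scale. With 1 probe set, the alternatives that average or select probe sets could not change it. Ccn2 is also made by endothelium and muscle. Their markers were higher in the same array, as were those of several other cell types named above. The cell source of Ccn2 was not tested. Tgfbi, a matrix protein named for its induction by TGF-beta, read 13.00 in the bulge against 13.17 in the hairshaft, and all 4 of its probe sets were within 0.23 of equality.

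The Id genes, which code for proteins that bind and disable bHLH transcription factors, showed no common direction. Id1 read 9.11 in the bulge against 9.19 in the hairshaft (1.05-fold), Id2 had 9.91 and 9.76 (1.11-fold), and Id4 had 11.62 and 11.39 (1.18-fold). The other 2 probe sets of Id4 were slightly higher in the hairshaft. Id3 stood apart from them, at 7.86 in the bulge against 8.85 in the hairshaft, a difference of -0.997 that falls just short of the limit and passed it with quantile normalization, at -1.02.

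The windows before the starts of Id2, Id3 and Id4 are shown so that Id3, which stood apart, can be read beside Id2 and Id4. Id1 is not shown. Id2 lies at chr12:25096093-25096342 on the minus strand, Id3 at chr4:136143572-136143821 on the plus strand and Id4 at chr13:48260866-48261115 on the plus strand.
Id2: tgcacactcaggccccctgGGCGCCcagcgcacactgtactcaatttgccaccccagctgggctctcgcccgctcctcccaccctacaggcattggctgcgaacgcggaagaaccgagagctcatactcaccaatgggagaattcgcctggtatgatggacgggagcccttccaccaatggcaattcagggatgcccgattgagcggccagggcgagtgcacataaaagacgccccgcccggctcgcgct
Id3: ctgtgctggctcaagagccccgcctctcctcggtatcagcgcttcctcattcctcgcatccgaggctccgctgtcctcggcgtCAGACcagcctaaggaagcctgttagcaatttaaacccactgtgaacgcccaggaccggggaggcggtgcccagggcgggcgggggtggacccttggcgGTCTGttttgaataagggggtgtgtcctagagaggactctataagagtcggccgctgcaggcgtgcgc
Id4: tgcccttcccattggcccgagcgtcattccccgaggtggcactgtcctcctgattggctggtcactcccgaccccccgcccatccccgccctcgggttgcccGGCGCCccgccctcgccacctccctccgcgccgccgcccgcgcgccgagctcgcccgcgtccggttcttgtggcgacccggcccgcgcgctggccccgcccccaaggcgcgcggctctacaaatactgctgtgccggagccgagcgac

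Id2 and Id4 each held 1 match to GGCGCC and none to the SMAD box, and Id3 held 2 matches to the SMAD box and none to GGCGCC. Over all entries, 42.2% of windows held the SMAD box and 9.59% held GGCGCC. With 3 of 4 Id genes and short windows this is a description of the letters alone.

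Other genes of the pathway, 88 by name, were counted in the same way. Of these, 80 were measured and 56 were above the floor, with a median of 0.00. Of the 56, 8 (14.3%) were higher by 2-fold or more in the bulge and 2 (3.57%) in the hairshaft. Both shares were near those of all genes above the floor, 11.4% and 4.91%. Hjv, hemojuvelin, a BMP coreceptor of liver and skeletal muscle, read 8.47 in the bulge against 2.23 in the hairshaft, at least 55.4-fold higher in the bulge, the array in which 12 of 12 skeletal muscle markers were higher. Acvr1c, the kinase ALK7 of fat cells, had 4.90 and 2.42 (at least 4.68-fold), and 6 of 6 fat cell markers were higher in that array too. Whether muscle or fat cells account for Hjv and Acvr1c was not tested. Rgma, a coreceptor related to Hjv, had 6.99 and 5.60 (2.62-fold).

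Itgb8, an integrin chain that frees active TGF-beta from its latent form, read 8.15 in the bulge against 4.95 in the hairshaft (9.16-fold). Its relatives in this task, Itgav at 10.73 and 10.84 and Itgb6 at 2.94 and 3.13, were under 2-fold apart. Itgb6 was near the floor, where a difference can hardly show. Among antagonists, the chordin relative Chrdl1 had 6.001 and 3.26 (6.66-fold) and the endothelial BMP regulator Bmper had 5.04 and 2.33 (at least 5.15-fold), both higher in the bulge. Crim1, a membrane protein that binds BMPs, had 8.79 and 10.20 and was 2.66-fold higher in the hairshaft. Sostdc1, a BMP and Wnt antagonist of the follicle, was near-equal at 8.79 and 8.68.

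Of 14 other targets above the floor, 2 were over the limit in the bulge (14.3%, against 11.4% of all genes). In the hairshaft 1 was over it (7.14%, against 4.91%). Hamp, the iron hormone hepcidin and a BMP target in liver, read 4.98 in the bulge against 2.87 in the hairshaft (4.32-fold), and the transcription factor Hey1 had 4.14 and 2.66 (at least 2.75-fold). Cdkn2b, the cell cycle inhibitor p15 and a TGF-beta target, had 7.88 and 9.39, 2.85-fold higher in the hairshaft. None of 13 other SMAD partners and regulators above the floor was over the limit. Of all genes above the floor, 11.4% were over it in the bulge and 4.91% in the hairshaft.

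**Figure D4:**
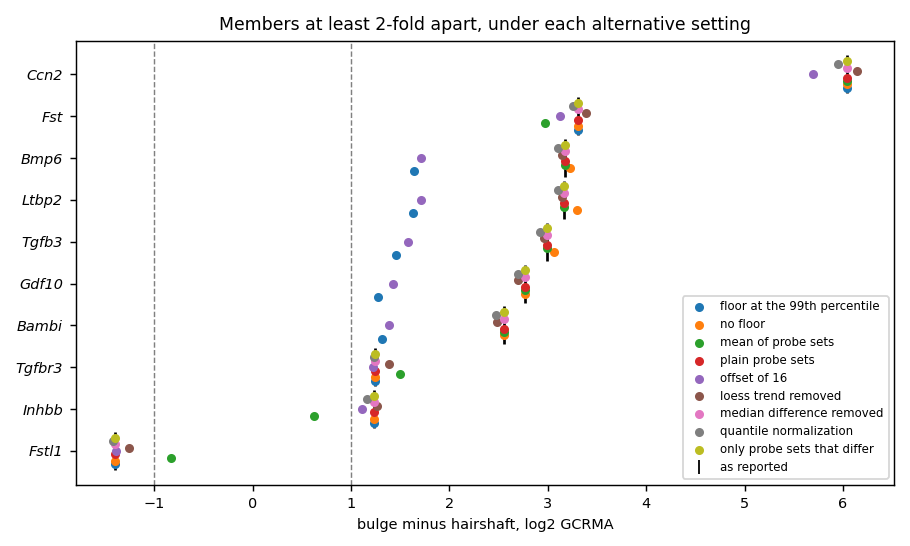
Bulge minus hairshaft difference (log2 GCRMA, horizontal axis) of the 10 genes at least 2-fold apart, as reported (bar) and under 9 alternative settings (coloured points), with the 2-fold limit dashed. Bmp6, Gdf10, Tgfb3, Ltbp2 and Bambi move toward the limit with the higher floor and with the offset but stay beyond it, and Inhbb and Fstl1 cross it with the mean of probe sets.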

How the data were processed

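Total RNA of 2 laser-cut structures was measured on expression arrays, 1 per structure. The authors summarised each probe set with GCRMA, per the submitters' processing notes; no source used here gives its version or settings. The deposited numbers run from 2.23 to 15.36 and were taken as log2. The sorted columns differed by 0.0447 on average, and no scaling was added. No column was left unmatched (0). Platform symbols were updated through Entrez identifiers against RefSeq (GRCm38.p6), and probe sets naming several genes were left out, including 1 shared by Orc4 and Acvr2a.

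A gene is represented by its probe set of highest average value. The floor was the 95th percentile of 80 olfactory and vomeronasal receptor probe sets. A value at or below it was set to the floor, and the fold is then written "at least". No test was run, since 0 residual degrees of freedom remain, and precision is limited by the number of arrays. The counting was tested on simulated data. Members and gene lists were chosen with earlier results of these data known. All members were named, with other pathway genes at least 2-fold apart; Itgb6, Itgav, Sostdc1 and Gdf2 were added after their values were seen. Results were recomputed with 9 alternatives, of which 1, leaving out identical probe sets, was chosen after seeing the data. Python 3.11.15, pandas 2.3.3, numpy 2.4.6 and statsmodels 0.14.6 were used.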

Additional observations from a re-analysis of the deposited data

How the results depend on the processing

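Of the 10 genes at least 2-fold apart, 8 were called the same way under all 9 alternatives. Of these, Bmp6, Gdf10, Tgfb3, Ltbp2, Bambi and Ccn2 have 1 probe set each. Averaging, selecting or leaving out probe sets could not change their values. Inhbb (0.62) and Fstl1 (-0.83) fell under the limit with the mean of probe sets. The count in the bulge was 9 to 11, of 40 to 49 genes counted, while the share of all genes ran from 8.46% to 12.4%. The count in the hairshaft was 1 as reported, against 4.91% of all genes. It was 0 when probe sets were averaged, against 4.43% of all genes. With quantile normalization, which added Id3, it was 2, against 5.84% of all genes. Of 38 genes under the limit, 34 stayed there wherever a value could be given; the others were Bmp7, Ltbp3, Ltbp4 and Id3. No called difference changed sign, and 12 of 415 values moved by over 1.5-fold. With the offset of 16 the log2 difference was 1.72 for Bmp6, 1.58 for Tgfb3, 1.71 for Ltbp2, 1.43 for Gdf10 and 1.38 for Bambi. Removing the median difference changed nothing, because that median is 0.00. Leaving out a replicate was not possible with 1 array per structure. Dim genes are limited by the floor.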

Other observations

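Identical values on both arrays were most frequent among low signals but not limited to them. Of all 45101 probe sets, 17293 (38.3%) had the same deposited number on both arrays in every digit, and 3289 of these were above the floor. The share was 68.6% of probe sets with a mean of 2 to 4 (log2), 8.64% at 4 to 6, 2.59% at 6 to 8 and 0.403% above 8. Among other genes of the pathway, Gdf2, the circulating ligand BMP-9, had 5.49 on both arrays. The cause was not tested.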
